A study of Mus musculus with 74 samples.

Results

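The peaks described here were those of KRAB zinc finger proteins (KRAB-ZFPs) that lay inside the coding part of genes and away from gene starts. A peak was taken when the midpoint of its 200 bp window fell in a coding exon of the mouse build mm9 (gencode vM1) and more than 1 kb from every annotated transcript start. Genes with symbols beginning Zfp, Zkscan or Zscan and the KRAB-ZFP gene clusters on chromosomes 2, 4 and 13 were left out. This gave 634 of 53011 peaks, in 549 genes, and 54 of the 67 KRAB-ZFPs had at least 1. Of 1375 coding-exon peaks in all, 698 were within 1 kb of a transcript start and 43 were in an excluded gene or region.

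The peaks came from ChIP-seq, in which chromatin bound by a tagged protein is precipitated and sequenced. Every KRAB-ZFP was overexpressed from a stably integrated vector with a 3XFLAG or 3XHA epitope tag, and puromycin-resistant clones were pooled. In F9 EC cells, a mouse embryonal carcinoma line, 18 KRAB-ZFPs carried FLAG and 30 carried HA and were called against an input and a control ChIP for the tag. Another 10 HA-tagged KRAB-ZFPs in F9 EC cells were mapped with Bowtie2 instead of Bowtie and called against an HA ChIP from cells labelled as overexpressing Gm14296_control with a 3XHA tag, and 9 HA-tagged KRAB-ZFPs were expressed in B6 ES cells and called against an input alone. Each KRAB-ZFP was assayed in 1 sample, so no peak value below has a replicate error, and an interval covers counting error only. The FLAG and HA groups differed in tag, control ChIP and, for most KRAB-ZFPs, tagged end and vector, the groups mapped with Bowtie and Bowtie2 in mapping and control, and the F9 and ES groups in cells, ChIP protocol, control and peak threshold, since ES peaks had no minimum enrichment. These parts of a difference between groups cannot be told apart. Between 52 and 5685 peaks were deposited per KRAB-ZFP, with 1681 to 540220 tags inside them.

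KRAB-ZFPs bind DNA through an array of C2H2 zinc fingers, each of which contacts a few bases, and their KRAB domain recruits the corepressor KAP1, which brings histone H3K9 methylation and silencing. They are best known for silencing retrotransposons, which lie mostly outside coding exons. A coding exon has a base composition set by its codons and is mostly present once in the genome.

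The sequences of the strongest coding-exon peaks are given first, because the results turn on them. For each KRAB-ZFP with at least 10 coding-exon peaks, an 8-base word was chosen on its other single-copy peaks as the word most enriched within 50 bp of the midpoint, so the coding-exon peaks had no part in the choice. The lines below hold 60 bases of mm9 around that word, read in its direction, in the named single-copy peaks of KRAB-ZFPs whose word was also common in their coding-exon peaks, with the word or its 1-mismatch match in capitals.
Kpna3, Gm13154, chr14:62010210-62010269, plus strand: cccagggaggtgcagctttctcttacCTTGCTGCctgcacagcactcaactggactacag
Lin37, Gm13154, chr7:31342270-31342329, minus strand: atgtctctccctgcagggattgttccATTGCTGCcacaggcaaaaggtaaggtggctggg
Slit1, Zfp961, chr19:41685278-41685337, plus strand: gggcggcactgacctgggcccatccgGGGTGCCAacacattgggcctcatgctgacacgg
Myo7a, Zfp961, chr7:105245916-105245975, minus strand: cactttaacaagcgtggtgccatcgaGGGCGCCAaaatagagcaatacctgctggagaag
Ace, Gm14419, chr11:105850276-105850335, plus strand: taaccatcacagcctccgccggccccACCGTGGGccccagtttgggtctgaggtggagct
R3hdm1, Gm14419, chr1:130120081-130120140, minus strand: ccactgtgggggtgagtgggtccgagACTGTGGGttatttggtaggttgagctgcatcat
Wdr26, Gm14401, chr1:183117772-183117831, minus strand: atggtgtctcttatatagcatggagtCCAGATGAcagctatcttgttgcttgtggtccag
Runs of CAG marked most coding-exon peaks of Gm14420. The lines below show its 2 single-copy peaks with the highest fold enrichment among those with its word at the centre, with the word in capitals, and were chosen after the values were seen.
Zfhx3, Gm14420, chr8:111479957-111480016, plus strand: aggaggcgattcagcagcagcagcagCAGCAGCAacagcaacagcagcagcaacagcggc
Bahcc1, Gm14420, chr11:120135880-120135939, plus strand: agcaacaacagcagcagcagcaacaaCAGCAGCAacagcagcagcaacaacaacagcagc
The windows with the highest fold enrichment for Gm13152 and Gm14412 held no word within 50 bp of the midpoint. They held many CpG dinucleotides, which are in capitals below and read along the coding strand of the gene.
Gdf15, Gm13152, chr8:73153643-73153842, minus strand: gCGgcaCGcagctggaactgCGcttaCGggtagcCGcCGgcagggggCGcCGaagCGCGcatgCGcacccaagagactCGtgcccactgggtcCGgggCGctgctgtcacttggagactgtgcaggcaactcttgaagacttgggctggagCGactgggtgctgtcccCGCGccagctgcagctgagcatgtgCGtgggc
Lor, Gm14412, chr3:91884587-91884786, minus strand: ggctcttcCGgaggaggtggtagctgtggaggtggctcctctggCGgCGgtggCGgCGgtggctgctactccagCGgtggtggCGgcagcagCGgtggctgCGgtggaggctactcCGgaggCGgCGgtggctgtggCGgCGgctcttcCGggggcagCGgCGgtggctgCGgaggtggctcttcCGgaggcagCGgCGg
The last sequence is the coding-exon locus called in the most KRAB-ZFPs, with coding bases in capitals and the following intron in lower case.
Iqgap3, shared locus, chr3:87919892-87920121, plus strand: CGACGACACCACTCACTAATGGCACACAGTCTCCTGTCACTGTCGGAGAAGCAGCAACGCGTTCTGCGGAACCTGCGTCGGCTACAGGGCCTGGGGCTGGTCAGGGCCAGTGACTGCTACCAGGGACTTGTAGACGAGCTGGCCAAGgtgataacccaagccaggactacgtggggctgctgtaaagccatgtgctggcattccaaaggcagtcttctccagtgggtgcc

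A few KRAB-ZFPs held most of the coding-exon peaks. Gm13152 alone had 154, Gm13154 had 51 and Zfp961 had 47, and the 10 KRAB-ZFPs with the most held 69.7% of them. Coding bases that meet the rule make up 0.997% of the assembled genome, and 1.20% of all peaks fell there, or 1.00% without Gm13152. The share exceeded the genome share, with the whole Wilson 95% interval above it, in 12 of 67 KRAB-ZFPs (17.9%), and lay below it in 9 (13.4%). When only single-copy peaks were counted, 21 KRAB-ZFPs were above it, but the genome share was not limited to single-copy sequence. This filter removed 4.26% of coding-exon peaks but 46.4% of peaks outside coding exons and over 1 kb from a start. It raises the shares by itself, so the counts of 21 and 12 do not compare.

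Among KRAB-ZFPs with at least 100 peaks the highest share was that of Gm14420, at 4.44% of 383 peaks (Wilson 95% interval 2.79% to 6.99%). All coding-exon peaks of Gm14420 had a deposited false discovery rate above 5%, and its peaks had no minimum enrichment. Gm13247 followed at 3.61% of 277 (1.97% to 6.52%), then Gm13154 at 3.27% of 1561 (2.49% to 4.27%), Zfp961 at 3.23% of 1457 (2.43% to 4.26%) and Gm13152 at 2.97% of 5189 (2.54% to 3.46%). These 5 intervals overlap one another, so their order is not resolved. Zfp661 at 2.72% of 1065 and Zfp709 at 1.88% of 1223 were also above the genome share, whereas the intervals of Gm14401 at 1.43%, Gm14412 at 1.11%, Gm13235 at 1.06%, Gm14419 at 0.947% and Gm13251 at 0.879% contained it.

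At the other end, 10 KRAB-ZFPs with at least 100 peaks had none in a coding exon. The share that a count of 0 allows is given as 3 counts of the total. Gm13051 had 0 of 550 peaks, which allows a share of up to 0.545% (Wilson upper limit 0.694%), Zfp808 had 0 of 544, which allows up to 0.551%, and Gm13157 had 0 of 443, which allows up to 0.677%. Next by number of peaks, Gm14436 with 0 of 212 and Gm13139 with 0 of 169 allow 1.42% and 1.78%, so a difference from the genome share was not detectable with so few peaks. Gm14406, with the most peaks of all, had 7 of 5685, a share of 0.123% (0.0597% to 0.254%).

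**Figure D1:**
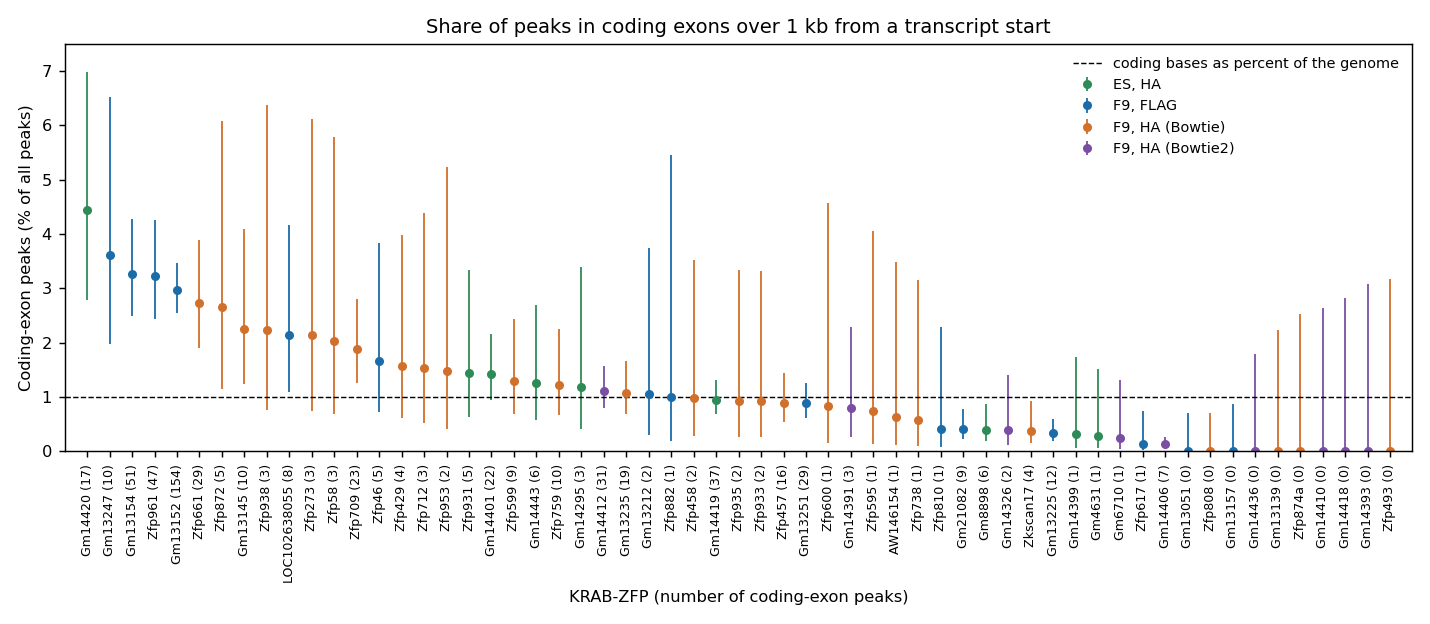
Percent of the peaks of each KRAB-ZFP with at least 100 peaks (y axis) that lay in coding exons over 1 kb from a transcript start, ordered by share, with the number of such peaks in parentheses. Points are shares, bars are Wilson 95% intervals, colours are the groups and the dashed line is the genome share of 0.997%. The interval of Gm14420 lies wholly above the line, and that of Gm14406 wholly below it.

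The shares did not separate the groups. FLAG-tagged KRAB-ZFPs in F9 EC cells ranged from 0% to 3.85% with a mean of 1.45% ± 1.37 (SD, n = 18), and HA-tagged ones mapped with Bowtie from 0% to 2.98% with a mean of 1.17% ± 0.889 (SD, n = 30). The shares of the groups overlapped, and the difference of 0.286 points had an adjusted p of 0.577 (two-sided permutation test over KRAB-ZFPs, 3 comparisons). The 58 F9 KRAB-ZFPs averaged 1.18% ± 1.15 and the 9 in ES cells 1.29% ± 1.27, a difference of -0.118 points with an adjusted permutation p of 0.783, and the sign turned to 0.275 without Gm14420. HA-tagged KRAB-ZFPs mapped with Bowtie averaged 0.455 points more than the 10 mapped with Bowtie2, which averaged 0.712% ± 1.38 (adjusted permutation p = 0.577). That call rested on EtOHi1, which had 3 of 67 peaks in coding exons: without it the difference was 0.874 points, with an adjusted permutation p of 0.0211. It turned to -0.551 points when only peaks with p under 1e-10 and enrichment over 20 were kept.

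Each KRAB-ZFP's coding-exon peaks were compared with its other peaks over 1 kb from a transcript start and outside coding exons, called other distal peaks. The coding-exon peaks were wider, with more tags. They were also more often single-copy and richer in GC, as coding positions themselves are. The comparison used the 25 KRAB-ZFPs with at least 5 coding-exon peaks, which hold 577 of the 634. Tags per peak were higher by 0.061 on the log10 scale, or 1.15-fold (SD 0.0907 over 25 KRAB-ZFPs, higher in 20), with an adjusted p of 0.00353 in a two-sided sign-flip permutation test over KRAB-ZFPs. The MACS14 score, 10 times -log10 of the p-value, was 1.18-fold higher (higher in 21 of 25, adjusted permutation p = 0.00305). The called width was 1.10-fold larger (20 of 25, adjusted permutation p = 0.0004). Both tags and score missed the threshold when only the 16 KRAB-ZFPs with at least 10 coding-exon peaks were used (adjusted permutation p = 0.0557 and 0.0784).

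Fold enrichment was not shown to differ. Its median was 1.05-fold that of other distal peaks, higher in 15 of 25 KRAB-ZFPs, with an adjusted permutation p of 0.183. The coding-exon peaks of Zfp961 had a median fold of 47.9 against 37.6 for its other distal peaks, those of Zfp661 had 36.4 against 29.9 and those of Gm13154 had 32.7 against 31.4. Gm14419 stood apart, with 14.8 against 25.3. Without Gm14419 the ratio gave an adjusted permutation p of 0.00508, and single-copy peaks alone, in 24 KRAB-ZFPs, gave 0.00078.

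The rule selects coding sequence, which differs from other sequence in copy number and GC content. Tests of these measures against other distal peaks were therefore largely set in advance. Each value is given beside that over coding positions. Of the coding-exon peaks, 4.26% lay in multi-copy sequence, that is, with a median copy number above 1 for the 24-base words of the window, against 46.4% of other distal peaks and 6.16% of windows placed on coding positions that meet the rule. The share was lower in all 25 KRAB-ZFPs, with a mean difference of -30.3 points (SD 24.8, adjusted permutation p = 3e-05). GC content was higher in 24 of 25, by 6.57 points on average (SD 3.69, adjusted permutation p = 3e-05). Its median was 56.5% in coding-exon peaks, 46.5% in other distal peaks and 50.5% in coding positions.

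**Figure D2:**
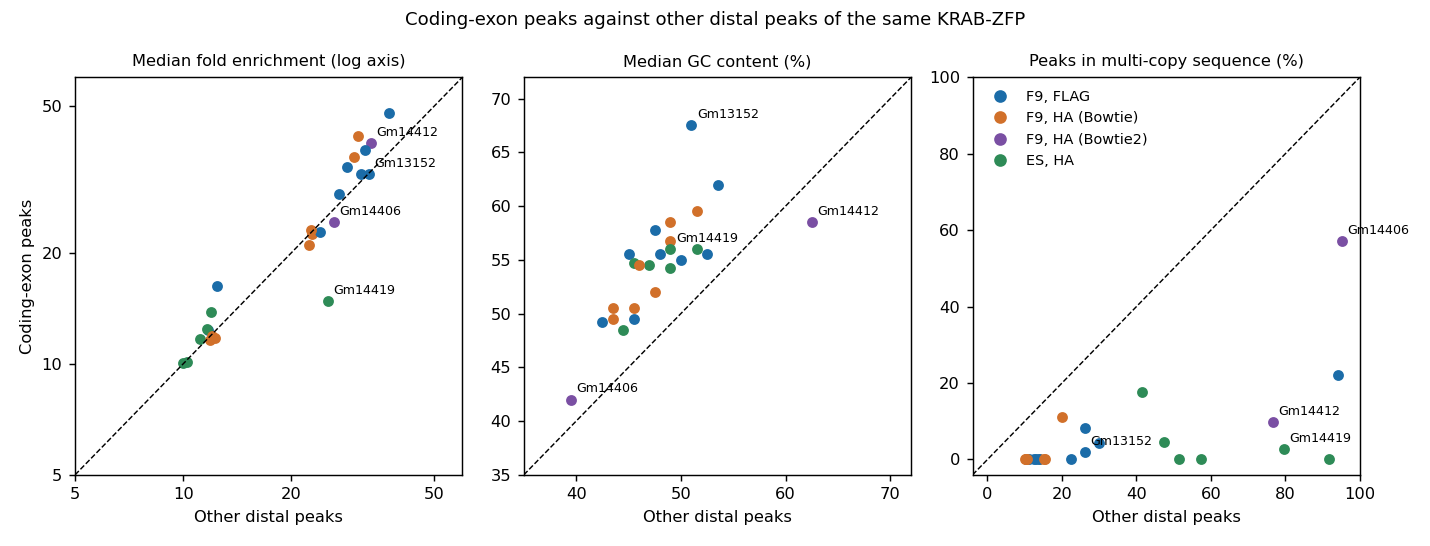
Median fold enrichment, median GC content of the 200 bp window, and percent of peaks in multi-copy sequence, for coding-exon peaks (y axis) against other distal peaks (x axis). Each point is 1 of the 25 KRAB-ZFPs with at least 5 coding-exon peaks, coloured by group, and the dashed line marks equal values. All 25 points lie below the line for multi-copy sequence, and 24 of 25 lie above it for GC content.

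The 27 coding-exon peaks in multi-copy sequence included gene models that are themselves repetitive. The single-exon models Gm17646 and Gm17492, both with a Gm14406 peak, had median copy numbers of 8141 and 8011. The last coding exon of 1700008F21Rik, called for both Rex2 and Zfp600, had 140 copies in the Rex2 window. Pairs of near-identical paralogs, such as Tuba3a and Tuba3b for Zfp961 and Naip1 and Naip6 for Gm14406, had a median copy number of 2, and reads of such pairs cannot be assigned to 1 member with certainty.

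The words of 7 KRAB-ZFPs were held by over 30 points more of their coding-exon peaks at the centre than in the flanks. Over the 16 KRAB-ZFPs with at least 10 such peaks, 22.3 points more of them held the word within 50 bp of the midpoint than in flanks 150 to 250 bp away (SD 29.8), with a p of 0.00855 in an exact sign-flip permutation test. The value was above 0 in 10 KRAB-ZFPs and below 0 in 3. Words were searched on both strands with up to 1 mismatch, and the share of 25497 coding windows of the same length that hold each word is given beside it.

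For Zfp961 the word was GGGCGCCA, which 87.2% of 47 coding-exon peaks held at the centre, against 6.38% in the flanks and 5.47% of coding windows. Of its other single-copy peaks 77.1% held it. For Gm13154 the word was ATTGCTGC, held by 82.4% of 51 coding-exon peaks, with 7.84% in the flanks and 9.56% of coding windows. Of its other single-copy peaks 71.4% held it. In both KRAB-ZFPs most coding-exon peaks thus carried the word chosen elsewhere.

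Lower shares were seen for Gm14412 (AGAGGCAG, 54.8% against 12.9% in the flanks and 16.7% of coding windows), Gm14401 (CCAGATAA, 45.5% against 9.09% and 7.79%) and Gm14419 (ACTGTGGG, 40.5% against 6.76% and 11.6%). For Gm13225 a run of A, AAAAAAAA, stood in 7 of 12 coding-exon peaks, but only 2 of the 7 runs lay inside the coding exon. The words of Gm13154 and Gm14420 share a run of 6 letters on opposite strands, and no other pair of these 7 words shared more than 4.

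**Figure D3:**
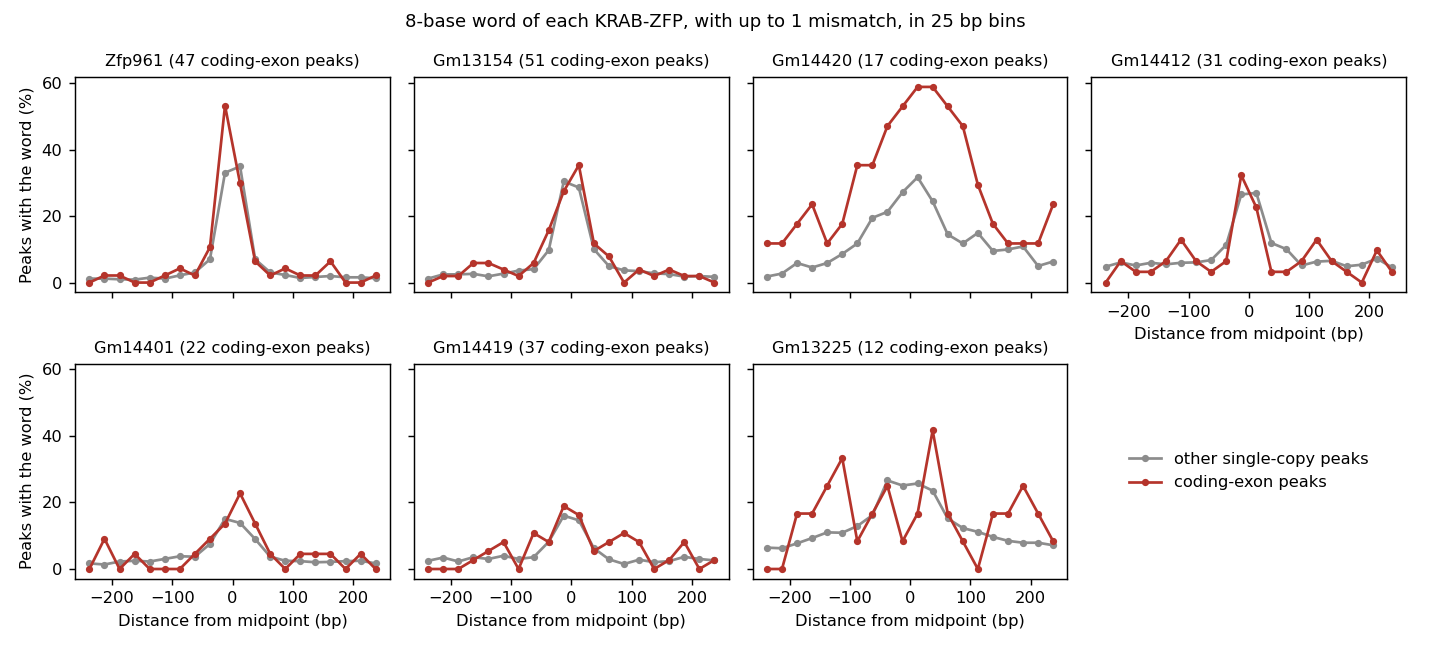
Percent of peaks (y axis) with the 8-base word of their KRAB-ZFP, with up to 1 mismatch, in 25 bp bins of distance from the midpoint (x axis, bp). Red lines are coding-exon peaks and grey lines other single-copy peaks, on which the word was chosen. In Zfp961 and Gm13154 both lines peak within 25 bp of the midpoint, while the line of Gm14420 is broad.

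The 8-base words of Gm13152 and Zfp661 were not commoner in the centre of their coding-exon peaks than near it. The Gm13152 word AGACCCTC stood in 12.3% of 154 peaks, 9.74% of flanks and 9.05% of coding windows, and in 23.9% of its other single-copy peaks. The Zfp661 word CAAAGCTG stood in 10.3% of 29 coding-exon peaks and of flanks but in 41.5% of its other single-copy peaks. Words of 10 bases, chosen in the same way, gave another picture for both. For Zfp661, CAGCGCCACC stood in 27.6% of the coding-exon peaks, 3.45% of flanks and 16.4% of its other single-copy peaks, and for Gm13152, CCAGAGGGTC stood in 7.79%, 0.974% and 17.2%. For Gm13145, Gm13235, Gm13251, Zfp457 and Zfp709 the chosen word was a CA repeat, which was held by between 0% and 20.0% of their coding-exon peaks.

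Strand and reading frame could be read for words that lay within the coding exon. For Zfp961, 18 words read along the coding strand and 20 along the template strand. For Gm13154, 12 read along the coding strand and 27 along the template strand. In coding windows 47.5% of the Zfp961 words and 47.4% of the Gm13154 words were on the coding strand. In 16 of the 27 template-strand words of Gm13154, the first base covered, counted along the coding strand, was the 2nd position of a codon. That held for 469 template-strand words in coding windows, against 370 at the 1st and 326 at the 3rd position. These counts were not tested.

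Most Gm14420 peaks in coding exons lay on runs of CAG. Its word CAGCAGCA was held by 82.4% of 17 peaks, against 23.5% in the flanks, 54.8% of its other single-copy peaks and 20.1% of coding windows, and 12 of the 14 matches were exact. All 13 words inside a coding exon read along the coding strand. In 10 of them the word began at the 1st position of a codon, the frame in which an exact word reads as CAG codons for glutamine (the match in the 2nd peak of Zfhx3 was inexact), and in the remaining 3 at the 3rd position, which reads as AGC codons for serine. In coding windows 52.2% of the words were on the coding strand and 21.6% were there at the 1st position. These shares were not tested against each other, and the word was exact in 2.33% of coding windows. All 17 coding-exon peaks of Gm14420 had a deposited false discovery rate of 20% or more, up to 50%. The genes included Zfhx3, a homeobox and zinc finger transcription factor, with 2 peaks of 36.2 and 10.4 fold, Mll2, a histone H3K4 methyltransferase, with 2 of 33.9 and 16.0 fold, the chromatin protein Bahcc1 with 17.7 fold, the corepressor Ncor1 with 10.0 fold, and the forkhead factors Foxp2 and Foxp1 with 14.2 and 9.95 fold. The Mll2 peak of 33.9 fold held no word within 50 bp of the midpoint. The windows in Foxp2 and Foxp1 had median copy numbers of 31 and 6.

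Among the 16 KRAB-ZFPs with at least 10 coding-exon peaks, those of Gm13152 had the highest median GC content and number of CpG. The median GC content was 67.5%, with 15 CpG per 200 bp window, and 52.0% held at least 15 CpG, compared with 8.54% of the coding-exon peaks of all other KRAB-ZFPs together and 1.76% of coding positions. The share was next highest in Gm14412 among these 16, at 32.3% of 31 peaks, and was 40.0% of 5 in Zfp46 and 50% of 4 in Zfp429. Of the other distal peaks of Gm13152, 8.85% held as many. Within 1 kb of a transcript start, outside the rule, lay 50.1% of all Gm13152 peaks. The CpG-rich coding-exon peaks were not limited to those nearest a start: the share with at least 15 CpG was 56.4% of 39 peaks at 1 to 2 kb, 56.2% of 48 at 2 to 5 kb and 46.3% of 67 farther out. At the rule's limit, the 42 coding-exon peaks at 750 to 1000 bp had a median fold of 24.5 and 11 CpG and included 17 of Gm13152, and the 32 within the next 250 bp had 30.02 and 10.5 CpG and included 15.

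**Figure D4:**
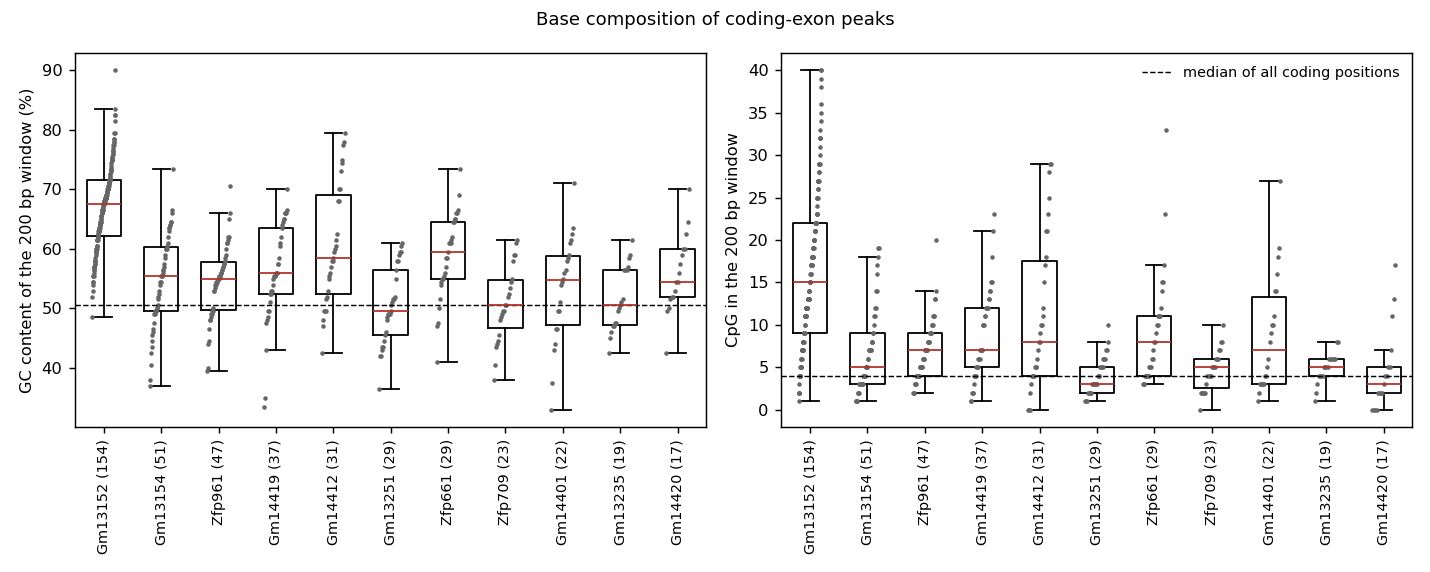
GC content in percent (left) and number of CpG (right) of the 200 bp windows of coding-exon peaks, for the 10 KRAB-ZFPs with the most such peaks and for Gm14420, with the number of peaks in parentheses. Points are peaks, boxes span the quartiles with the median in red, whiskers reach the last point within 1.5 box lengths, and dashed lines are the medians of all coding positions, 50.5% and 4 CpG. Gm13152 has the highest median in both panels, 67.5% and 15 CpG.

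The strongest coding-exon peaks were strong among all peaks of their KRAB-ZFP in some cases only. For Gm13152 they were in Gdf15, a cytokine of the TGF-beta superfamily (115 fold, 416 tags), and Topors, a ubiquitin and SUMO ligase (105 fold, 268 tags, chr4:40215416-40215615). They ranked 68th and 109th by fold among 5189 peaks. For Gm14412 the peak in Lor, the gene of the cornified envelope protein loricrin, had 140 fold and 1113 tags and ranked 3rd, and that in Foxb2, a forkhead transcription factor, had 119 fold and ranked 15th, at chr19:16946842-16947041. Both lay in genes with a single coding exon, as did 8 of the 31 coding-exon peaks of Gm14412.

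For Zfp961 the peaks with the highest fold were in Slit1, an axon guidance ligand (143 fold, 363 tags, coding exon 30 of 37), and Myo7a, an unconventional myosin of hair cells (127 fold, 394 tags, coding exon 6 of 48). For Gm13154 they were in Kpna3, an importin alpha (131 fold, 335 tags), and Lin37, a subunit of the DREAM complex (124 fold, 221 tags). All 4 held the KRAB-ZFP's word, exactly in Myo7a and Lin37. For Zfp661 they were in Incenp, of the chromosomal passenger complex (112 fold), where the midpoint (chr19:9957583-9957782) lay in a coding exon of 12 bp, and Isyna1, an inositol phosphate synthase (109 fold, chr8:73120672-73120871). These 6 peaks ranked between 17th and 41st among all peaks of their KRAB-ZFP.

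Peaks of lower fold led in the remaining KRAB-ZFPs, though fold compares only within a sample. Gm14419 had 68.8 fold in the last coding exon of Ace, the angiotensin-converting enzyme, and 48.2 fold in R3hdm1. For Gm14401 they were 39.98 fold in Ptger1, a prostaglandin E receptor (chr8:86192468-86192667), and 34.1 fold in Wdr26, with deposited false discovery rates of 50% and 33.3%. Gm13251 reached 33.3 fold in the last coding exon of Paqr3 (chr5:97524899-97525098) and 32.7 fold in Cul9, a cullin (chr17:46646709-46646908). Gm13235 reached 20.9 fold in Pstpip1 (chr9:55974353-55974552) and 16.9 fold in Iqgap3, and Zfp709 17.1 fold in Slc26a4, the anion exchanger pendrin (chr12:32241818-32242017), and 16.3 fold in Iqgap3. By fold among all peaks of their KRAB-ZFP, Pstpip1 ranked 8th, Ptger1 11th, Ace 18th, Slc26a4 72nd and Paqr3 168th. Over all 634 coding-exon peaks the fold ran from 6.40 to 143 with a median of 25.4, and 74 had a deposited false discovery rate above 5%.

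Within the coding sequence, fewer peaks than coding positions lay in internal exons, and more in first, last and single exons. The median coding exon was 230.5 bp long, against 179 bp for coding positions. Internal exons held 63.6% of peaks (Wilson 95% interval 59.7% to 67.2%) and 74.3% of coding positions, last exons 22.9% (19.8% to 26.3%) against 17.1%, single exons 6.94% against 4.60% and first exons 6.62% against 4.03%. The last of 4 equal parts of the coding sequence held 34.7% of peaks and 28.8% of coding positions. Without Gm13152, whose median exon was 625.5 bp, the median exon was 196 bp, 69.6% (65.3% to 73.5%) were internal and 20.2% (16.9% to 24.03%) were last, an interval that contains the share of coding positions. First exons then held 4.79% (3.21% to 7.09%) and single exons 5.42% (3.72% to 7.82%), and these intervals also contain the shares of coding positions. The median exon was shorter than that of coding positions for Gm14401 at 164 bp, Gm13251 at 158 bp, Zfp709 at 140 bp and Gm13235 at 126 bp. Gm14412 had the largest share in exons of at least 1 kb among the 10 KRAB-ZFPs with the most coding-exon peaks, 13 of 31, and Gm13235 had 0 of 19. No test was made of these shares.

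Most genes held 1 peak: 496 of 549 had 1 and 53 had more, and 50 had peaks of at least 2 KRAB-ZFPs. After windows overlapping by at least 25% were joined there were 589 loci, of which 31 were called in more than 1 KRAB-ZFP. Over all peaks, 14.2% of coding-exon peaks overlapped a peak of another KRAB-ZFP in this way, against 13.8% of other distal peaks and 17.9% of the single-copy ones among those. These shares were not tested against each other.

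The locus called most often was coding exon 34 of 38 of Iqgap3, which encodes a cytoskeletal scaffold of the IQGAP family, at chr3:87919892-87920121. It was called in 6 HA-tagged KRAB-ZFPs in F9 EC cells, with 26.9 fold for Zfp429, 23.1 for Zfp759, 22.96 for Gm13145, 21.03 for Zfp872, 16.9 for Gm13235 and 16.3 for Zfp709. Their midpoints lay within 30 bp of each other and their tags ran from 30 to 61. The minimum fold at which peaks were kept was 20 in the first 4 of these and 10 for Gm13235 and Zfp709.

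Coding exon 6 of 16 of Grik3, a kainate receptor subunit, was called in Gm13251, Gm13145, Zfp872 and Zfp759 with 20.6 to 24.2 fold. An internal exon of Ttn, the giant muscle protein titin, was called in Zfp938, Zfp458, Zfp709 and Gm13235 with 10.5 to 25.3 fold, and Ttn held peaks of 2 further KRAB-ZFPs at other exons, up to 68.8 fold. The loci called in 3 KRAB-ZFPs were in Tm9sf4, Cog5 of the Golgi tethering complex, Pstpip1, a cytoskeletal adaptor, 4921513D23Rik, Fgd2, and Enah, an actin regulator. Enah, in which 5 KRAB-ZFPs had peaks over 2 loci of 1 long exon, had both loci shared: the first was called in Gm14412 with 43.1 fold, Zfp46 with 25.5 and Gm13152 with 25.4, and the other in Gm6710 with 32.3 and Gm14391 with 23.9. Klhl9, a substrate adaptor of Cul3, and Palld, the actin-associated protein palladin, also held peaks of 3 KRAB-ZFPs, but at 2 and 3 loci.

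Shared loci took part of the peaks of 25 KRAB-ZFPs, in unequal shares. The 5 KRAB-ZFPs with a CA repeat as their word had 97 coding-exon peaks, of which 32 were at shared loci, and at least 1 of them was present at 17 of the 31 loci. In the other KRAB-ZFPs 44 of 537 were. Of the 10 peaks each of Gm13145 and Zfp759, 7 and 6 were at shared loci, but only 6 of 154 for Gm13152, 2 of 47 for Zfp961 and 0 of 29 for Zfp661. The KRAB-ZFPs with a CA repeat were grouped by words chosen from these same data. How often the other peaks of each KRAB-ZFP were shared is not given here. These counts therefore cannot show a trait of coding-exon peaks apart from the whole peak sets. Of the 67 KRAB-ZFPs, the 30 that were HA-tagged in F9 EC cells and mapped with Bowtie held 156 of the 634 coding-exon peaks. At 15 of the 31 loci all KRAB-ZFPs were of this group. These were called against the same input and the same HA control ChIP, whose part in the shared calls was not tested.

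**Figure D5:**
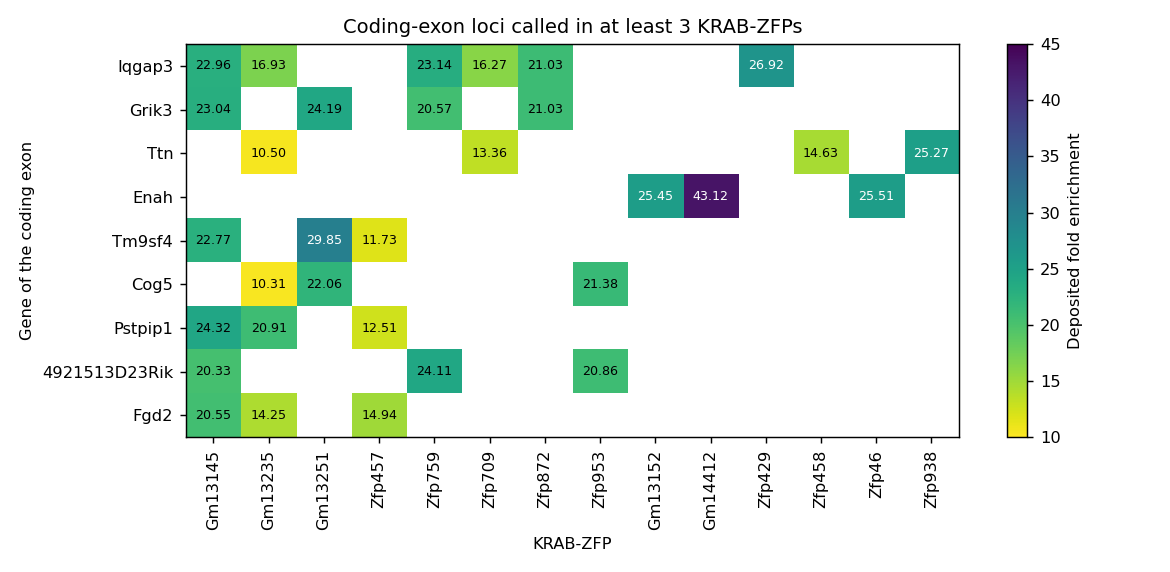
Deposited fold enrichment (colour and number) at the 9 coding-exon loci called in at least 3 KRAB-ZFPs (rows, by gene) for each KRAB-ZFP with a peak there (columns). A blank cell means that the table lists no coding-exon peak there for that KRAB-ZFP. The Iqgap3 locus has 6 filled cells, between 16.3 and 26.9 fold.

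Gm13247 differed in that its coding-exon peaks were nearly all in 1 gene. Of its 10, 8 lay in Lnx1, a ubiquitin ligase of Numb, 1 in each of 8 of its 10 coding exons, with 12.2 to 26.5 fold and 10 to 41 tags. No other KRAB-ZFP had a coding-exon peak in Lnx1. In all, 10 Gm13247 peaks lay between the first and the last coding base of Lnx1, a span of 88510 bp, and all 10 midpoints were in annotated exons. Without the Lnx1 peaks the share of Gm13247 was 0.743% of 269 (Wilson 95% interval 0.204% to 2.67%) and no longer above the genome share. No other KRAB-ZFP had more than 2 coding-exon peaks in 1 gene.

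By gene list, the Wilson interval of developmental transcription factor genes lay above their part of the coding sequence with and without Gm13152. The intervals of other zinc finger genes and of voltage-gated channels did so only with it. Other C2H2 zinc finger genes make up 1.505% of coding bases that meet the rule and held 16 peaks, 2.52% of all (Wilson 95% interval 1.56% to 4.06%). They included Zfhx3, Prdm13 with 91.8 fold for Gm13152 and 41.9 fold for Gm14412, and the repressor Scrt2 with 50.9 fold for Gm13152. Developmental transcription factors, 0.410% of coding bases, held 12 peaks, or 1.89% (1.09% to 3.28%), among them Foxb2, Foxp4 with 77.1 fold for Gm13154 and Foxo6 with 73.2 fold for Gm13152. Of the 12, 2 were Gm14420 peaks in multi-copy sequence, in Foxp1 and Foxp2. Gm13152 gave 8 of the 16 and 5 of the 12. Without it the shares of 480 peaks were 1.67% (0.847% to 3.25%) and 1.46% (0.708% to 2.98%). None of the 21 lists was tested.

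Voltage-gated sodium and calcium channels and potassium channels held 11 peaks, 1.74% of all (0.971% to 3.08%) against 0.954% of coding bases, with Kcnj9, a G-protein-gated inward rectifier, at 99.7 fold for Gm13152 and Scn8a at 27.1 fold for Zfp961. Solute carriers held 15 peaks, 2.37% (1.44% to 3.87%) against 1.91%, with Slc46a3 at 93.3 fold for Zfp961, Slc26a9 at 29.9 fold for Gm13251 and Slc38a2 at 17.1 fold for Gm14419. Gpr and adhesion receptors held 4 peaks (Gpr124 and Gpr37 among them) and myosins 4 (Myo5a, Myo7a and Myh14), each 0.631% of all, against 0.717% and 0.707% of coding bases. Keratins (Krt1 and Krt77), kinesins (Kif13a, Kif1c and Kif1b), spectrins and ankyrins (Spnb5, Spnb4 and Ank3) and ubiquitin proteases and ligases (Ubr2 and Usp33) held 3 each, or 0.473%, against 0.194%, 0.466%, 0.281% and 0.842% of coding bases. Vomeronasal receptors, 1.12% of coding bases, held 0 of 634 peaks, which allows a share of up to 0.473% by 3 counts of the total (Wilson upper limit 0.602%). Protocadherins, olfactory receptors and histones, at 0.360%, 0.253% and 0.00257% of coding bases, also held 0. Cadherins, ATP-binding cassette transporters, laminins and fibrillins, and dynein heavy chains held 2 each, or 0.315%, against 0.518%, 0.685%, 0.318% and 0.711% of coding bases. Collagens, mucins and chromatin silencing genes held 1 each, or 0.158%, against 0.691%, 0.213% and 0.191%.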

How the data were processed

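The authors mapped ChIP-seq reads to mm9 with Bowtie or Bowtie2, placing reads with several equal positions pseudo-randomly, and called peaks per sample with MACS 1.4.2 at p under 1e-10 or 1e-05 and, in F9 EC cells, enrichment over 20 or 10. They deposited 1 table of 200 bp windows with the tag count, the score (10 times -log10 p), the fold enrichment as a ratio and the false discovery rate as a percent. Library depth was not given in the sources used here. The study set aside some datasets that gave no binding motif or target transposable element and had low signal to noise. None was left out here for that reason. They are not marked apart in the shares, group means or shared loci.

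Peaks under a name that matched no label (244, of which 2 met the rule) were not used, and 1 labelled KRAB-ZFP, Zfp94, was not analysed here. The unmatched name, Zfp92, may be a misspelling of it. Each midpoint was placed in gencode vM1, in the transcript with the longest coding sequence. Copy number was the median genome count of the window's 24-base words. Tests were two-sided permutations over KRAB-ZFPs (100000 resamples, or exact), adjusted by Benjamini-Hochberg over 3 group comparisons and over 6 measures, and called at 0.05. They were tested on simulated data. C2H2 genes had at least 3 matches of the finger pattern in translated gencode transcripts rather than in RefSeq proteins. Spectrins were also matched by their older symbols. Named were the 10 KRAB-ZFPs with the most members, the 5 highest and 5 lowest shares among those with at least 100 peaks (ties at 0 by number of peaks), up to 10 genes with the most KRAB-ZFPs, 2 peaks per KRAB-ZFP, up to 3 genes per list, and loci of at least 3 KRAB-ZFPs. Some items that this rule names are not reported here. The members and the lists were chosen with earlier results of these data known. Intervals treat peaks as independent. Python 3 with numpy, pandas and scipy was used.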

Additional observations from a re-analysis of the deposited data

Results flagged for a closer look

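In groups of 4 to 10 KRAB-ZFPs, 20 sets of values were examined for 1 KRAB-ZFP far from the rest, and chance marks about 1 in 20. The coding-exon share of Gm14420 was 4.44%, against 0.269% to 1.44% in the other 8 KRAB-ZFPs in ES cells. Its coding-exon peaks all had a deposited false discovery rate above 5%. The share of EtOHi1 was 4.48% on 3 of 67 peaks, against 0% to 1.11% in the other 9 mapped with Bowtie2. In ES cells, the fold enrichment of Gm14419 coding-exon peaks differed from that of its other distal peaks by -0.232 on the log10 scale, against -0.00598 to 0.0614 in the other 5. The multi-copy share of Gm21082 coding-exon peaks differed from that of its other distal peaks by -72.0 points, against -25.6 to -11.3 in the other 8 FLAG-tagged KRAB-ZFPs. Outside that group the difference was larger for Gm8898 and Gm14419 in ES cells, at -91.7 and -76.9 points.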

How the results depend on the processing

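No paired analysis was possible because the groups compared hold different KRAB-ZFPs and replicate numbers carry no pairing. With p under 1e-10 and enrichment over 20 in every KRAB-ZFP, the F9 minus ES difference was 0.301 points, the Bowtie minus Bowtie2 difference -0.551 points, the log10 fold difference 0.0316 (adjusted permutation p = 0.043) and the number of shared loci 18. This filter left 54 against 9 and 29 against 8 KRAB-ZFPs, and neither group difference was called (adjusted permutation p = 0.824 for both). At a false discovery rate of at most 5%, more KRAB-ZFPs had no peaks left. F9 minus ES was then 0.850 points over 48 against 5 KRAB-ZFPs. Bowtie minus Bowtie2 was -0.6998 points over 24 against 7. Neither was called (adjusted permutation p = 0.340 for both). With at least 100 peaks the Bowtie minus Bowtie2 difference was 0.897 points (adjusted permutation p = 0.0115). Single-copy peaks alone gave 21 KRAB-ZFPs above the genome share, which was not itself limited to single-copy sequence, and a log10 fold difference of 0.044. With at least 10 members, the differences in score and tags were 0.0572 and 0.0547. Leaving out each KRAB-ZFP in turn, added after the data were seen, reversed F9 minus ES without Gm14420 and gave -0.246 to 0.275 points for F9 minus ES, 0.376 to 0.874 for Bowtie minus Bowtie2 and 0.015 to 0.0301 for log10 fold. In 69 other cases neither the direction nor the call changed, and counts moved by at most 1.5 times, the farthest being 8 KRAB-ZFPs above the genome share over 2 kb from a start. Shares of single KRAB-ZFPs moved by more than their interval in 7 cases. No cause was tested. The number of peaks limits the precision of each share.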
